A study of Mus musculus with 9 samples.

Results

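The mitochondrial ribosomal protein genes number 78 among the 20618 genes measured in mouse CD8+ T cells. They were chosen by symbol alone, as Mrpl or Mrps followed by a digit, with pseudogene symbols left out. The prefix Mrpl, for the large subunit, is carried by 49 of them, and the prefix Mrps, for the small subunit, by 29. The descriptions in the authors' deposited table call all 78 mitochondrial and place 47 in the large and 29 in the small subunit. The other 2 are Mrpl57 and Mrpl58, and Mrpl58 encodes a peptidyl-tRNA hydrolase that was built into the large subunit. RNA-seq was made from wild-type primary CD8+ T cells, the cytotoxic lymphocytes, kept for 24 h in medium with dialyzed serum and sorted for live cells. The media contained either 2 mM inosine together with hypoxanthine, 2 mM inosine alone, or 2 mM glucose. The labels print a dose of hypoxanthine whose unit cannot be read with certainty, so none is given here. Each medium had 3 libraries, all labelled as 1 batch, and the strain, age and activation of the cells are not given in the sources used here.

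Mitochondria have their own ribosome, which makes the few proteins encoded in mitochondrial DNA, all of them subunits of the respiratory chain and ATP synthase. Its RNAs come from mitochondrial DNA, whereas each of its proteins is encoded in the nucleus, made in the cytosol and imported. Some of these proteins have a counterpart in the bacterial ribosome and others belong to mitochondria alone. T cells that leave rest enlarge their mitochondria and raise mitochondrial translation, and inosine is a nucleoside whose ribose they can use as fuel while hypoxanthine is its purine base.

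The promoters shown here are those of the 4 members with the smallest adjusted p among the members that fell with hypoxanthine against inosine alone. Mrps5 lies on chromosome 2 at 127587426 to 127603986 (plus strand), Mrps18b on chromosome 17 at 35910380 to 35916440 (minus strand), Mrpl37 on chromosome 4 at 107055874 to 107066866 (minus strand) and Mrpl53 on chromosome 6 at 83109108 to 83109932 (plus strand), all by RefSeq in mm10 (GRCm38). The RefSeq promoter windows, in build GRCm38.p6, run from 250 bases before to 50 bases after the start of each gene. Their places are chr2:127587176-127587475 for Mrps5, chr17:35916391-35916690 for Mrps18b, chr4:107066817-107067116 for Mrpl37 and chr6:83108858-83109157 for Mrpl53. They are printed 5′ to 3′ on the strand of the gene, and capitals mark a match to 1 of 4 motifs on either strand.
Mrps5: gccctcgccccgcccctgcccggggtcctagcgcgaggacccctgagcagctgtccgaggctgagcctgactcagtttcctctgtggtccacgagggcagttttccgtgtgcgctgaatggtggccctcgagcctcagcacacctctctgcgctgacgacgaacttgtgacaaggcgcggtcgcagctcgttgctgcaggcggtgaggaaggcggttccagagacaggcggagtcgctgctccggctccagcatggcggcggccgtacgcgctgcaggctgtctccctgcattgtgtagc
Mrps18b: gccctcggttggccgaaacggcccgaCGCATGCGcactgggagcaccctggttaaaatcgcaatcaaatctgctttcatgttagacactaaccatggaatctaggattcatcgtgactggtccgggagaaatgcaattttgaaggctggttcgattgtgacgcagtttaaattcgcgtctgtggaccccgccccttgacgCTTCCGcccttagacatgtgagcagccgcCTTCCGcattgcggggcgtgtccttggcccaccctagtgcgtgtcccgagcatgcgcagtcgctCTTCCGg
Mrpl37: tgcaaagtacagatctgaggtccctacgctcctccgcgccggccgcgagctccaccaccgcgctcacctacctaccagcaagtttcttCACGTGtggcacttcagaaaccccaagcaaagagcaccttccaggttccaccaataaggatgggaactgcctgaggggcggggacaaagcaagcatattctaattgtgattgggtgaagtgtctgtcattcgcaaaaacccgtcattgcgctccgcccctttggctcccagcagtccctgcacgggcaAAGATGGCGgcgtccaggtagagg
Mrpl53: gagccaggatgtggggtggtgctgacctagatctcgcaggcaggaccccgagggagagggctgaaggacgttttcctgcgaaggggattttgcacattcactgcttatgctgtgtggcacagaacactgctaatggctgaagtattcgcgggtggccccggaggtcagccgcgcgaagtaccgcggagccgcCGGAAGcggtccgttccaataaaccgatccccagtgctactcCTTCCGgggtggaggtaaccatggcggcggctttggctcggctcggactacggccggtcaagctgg
The motifs searched were CGGAAG (the core bound by ETS factors such as GABP, which reads CTTCCG on the other strand), CGCATGCG (NRF1), CACGTG (the E-box of MYC and its relatives) and AAGATGGCG (YY1). CGCATGCG and CACGTG read the same on both strands, and no motif contains another. Mrps5 held none of them, Mrps18b held CGGAAG and CGCATGCG, Mrpl37 held CACGTG and AAGATGGCG, and Mrpl53 held CGGAAG.

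A RefSeq promoter was found for 69 of the 78 members. CGGAAG stood in 55.1% of them, against 17.2% of all 27025 promoters and 36.7% of the 8066 promoters of genes that averaged 1 FPKM or more. CGCATGCG stood in 10.1% of members, against 1.91% of all promoters and 4.54% of those of expressed genes. AAGATGGCG stood in 11.6% of members, against 1.49% and 3.89%. CACGTG stood in 7.25% of members, against 7.24% and 10.8%. Among members that fell with hypoxanthine against inosine, AAGATGGCG was found in 7 of 36 promoters, and among members not called it was found in 1 of 32. CGGAAG was found in 21 of 36 and in 17 of 32. These matches describe letters in a window and were not tested.

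All 78 members were well measured. FPKM, as deposited, counts fragments relative to gene length and library depth, so levels of different genes can be compared. Every member averaged over 1 FPKM, and the mean over 9 libraries had a median of 33.4 FPKM. Reads estimated from the tables ran from 657 to 7582 for a member in a library, with a median of 1994, beside 30853268 to 50199829 estimated reads and 16245 to 17217 genes above 0 per library. The 5 CD8 T cell markers (Cd3d, Cd3e, Cd3g, Cd8a and Cd8b1) summed to 1056 to 1140 FPKM with hypoxanthine, to 543 to 721 FPKM in inosine and to 591 to 637 FPKM in glucose. All 5 rose in both comparisons with hypoxanthine. The lists of CD4 T cell, B cell, myeloid, NK, erythroid, and epithelial or stromal markers summed to at most 2.21 FPKM in any library. The epithelial or stromal list, of 4 genes, summed to 2.12 to 2.21 FPKM with hypoxanthine, to 1.16 to 1.41 FPKM in inosine and to 1.17 to 1.59 FPKM in glucose. The myeloid list, of 5 genes, summed to 0.108 to 0.144 FPKM with hypoxanthine, to 0.397 to 0.577 FPKM in inosine and to 0.240 to 0.465 FPKM in glucose, with 1, 2 and 3 genes at 0 in those media. The part of these markers in the results below was not tested. Genes of mitochondrial DNA took 5.84% of FPKM in replicate 2 with hypoxanthine, 6.501% in replicate 2 of inosine and 4.03 to 4.82% in the other 7 libraries. The labels do not say that libraries came from separate animals or cultures, so every p here rests on the spread among these libraries, and that spread may be technical. In bulk RNA, fewer cells of a type and less RNA per cell cannot be told apart.

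The members as a whole took a smaller part of the measured RNA with hypoxanthine. They took 0.608%, 0.613% and 0.609% of all FPKM in the libraries with hypoxanthine, 0.716%, 0.766% and 0.745% in inosine and 0.748%, 0.738% and 0.735% in glucose. The mean was 0.610% ± 0.0026 with hypoxanthine, 0.743% ± 0.025 in inosine and 0.741% ± 0.0069 in glucose (SD, n = 3 each). The 3 libraries with hypoxanthine lay below the other 6, and the inosine and glucose libraries overlapped. Summed levels were 2684 ± 134 FPKM with hypoxanthine, 3241 ± 245 FPKM in inosine and 3171 ± 110 FPKM in glucose (SD, n = 3). As a share of estimated reads, which do not divide by gene length, members took 0.372 to 0.397% with hypoxanthine, 0.437 to 0.494% in inosine and 0.445 to 0.478% in glucose.

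**Figure D1:**
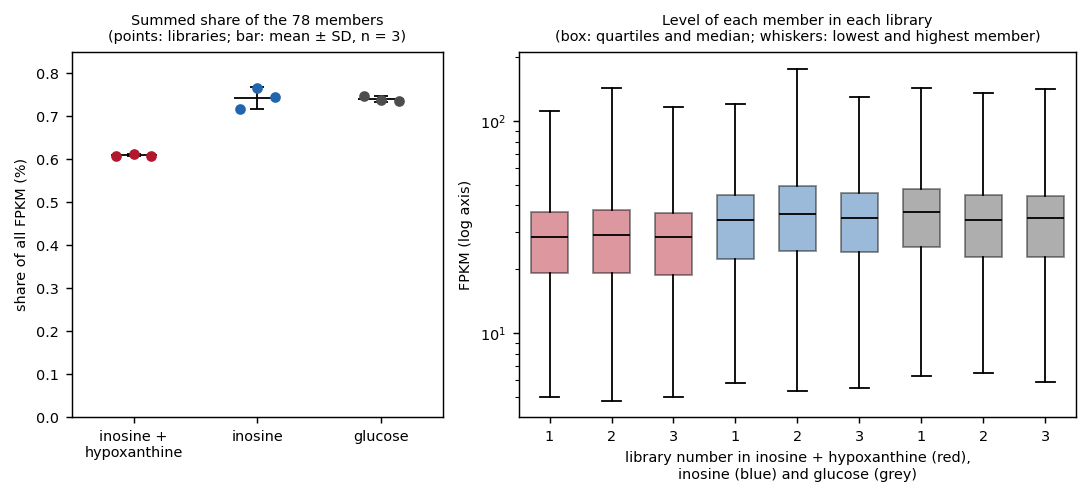
Left, the share of all FPKM (%) taken by the 78 members in each library (points) with the mean ± SD of 3 libraries, for inosine plus hypoxanthine, inosine and glucose. Right, the FPKM (log axis) of the members in each of the 9 libraries, with boxes for the quartiles and whiskers to the lowest and highest member. The 3 shares with hypoxanthine, at 0.608 to 0.613%, lie below the other 6, and the medians in the right panel are lower in the same libraries.

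Within each medium the most abundant member was Mrpl33 and the least abundant was Mrpl17. Mrpl33, a small protein of the large subunit, had 111, 142 and 116 FPKM with hypoxanthine, 120, 176 and 125 FPKM in inosine and 142, 135 and 142 FPKM in glucose. Mrpl17, also of the large subunit, had 5.02, 4.81 and 5.04 FPKM with hypoxanthine, 5.84, 5.35 and 5.53 FPKM in inosine and 6.27, 6.48 and 5.93 FPKM in glucose. The libraries of the 3 media overlapped for Mrpl33, and those with hypoxanthine lay lowest for Mrpl17. Next to Mrpl33 in the mean over 9 libraries stood Mrpl42 at 111 FPKM, Mrpl12 at 106 FPKM, Mrpl18 at 105 FPKM and Mrps21 at 99.5 FPKM. At the low end, Mrpl1 averaged 7.35 FPKM, Mrps25 7.61 FPKM, Mrpl19 9.93 FPKM and Mrpl41 11.7 FPKM. Mrpl42, Mrpl12 and Mrpl18 lie closer together than their libraries spread within a medium, so their order is not settled. Across the 78 members, the mean FPKM with hypoxanthine and in inosine gave a Spearman rho of 0.96, a description over genes of the same libraries and lengths. The median member stood at 28.3 FPKM with hypoxanthine, 35.2 FPKM in inosine and 35.2 FPKM in glucose.

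The comparison of inosine plus hypoxanthine with inosine alone asks what the added purine base does in cells that already receive the nucleoside. Of the 78 members, 40 fell, 1 rose and 37 were not called (limma on log2(FPKM + 1) over all genes, adjusted p under 0.05). Over all genes, 9.59% fell and 11.7% rose. Among the 9947 genes that averaged 1 FPKM or more, the range all members lie in, 15.95% fell and 16.9% rose. The median difference of the members was -0.31 on the log2 scale, beside 0.0016 over all genes and 0.019 over the expressed genes. The mean was lower with hypoxanthine for 69 members and higher for 9. For 47 members all 3 libraries with hypoxanthine lay below all 3 of inosine, which held for 15.6% of all genes, and for 2 they lay above, which held for 18.7%. The changes were moderate. Among the 40 that fell, the ratio of mean FPKM had a median of 0.722 and ran from 0.595 for Mrps18b to 0.856 for Mrpl54.

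Small subunit proteins supplied 5 of the 10 falls with the smallest adjusted p. Mrps5, whose bacterial counterpart lines the entrance channel for messenger RNA, had 33.1, 36.1 and 32.0 FPKM with hypoxanthine, 48.6, 50.4 and 55.6 FPKM in inosine and 50.6, 47.8 and 47.8 FPKM in glucose. All 3 libraries with hypoxanthine lay below the other 6. Its log2 difference from inosine was -0.60 ± 0.07 (SE, limma adjusted p = 0.00084), and from glucose -0.52 ± 0.07 (adjusted p = 0.0017). Mrps18b, 1 of 3 mammalian proteins related to bacterial S18, had 30.5, 31.6 and 29.9 FPKM with hypoxanthine, 44.7, 57.1 and 52.7 FPKM in inosine and 49.4, 46.1 and 45.1 FPKM in glucose. The hypoxanthine libraries again lay below the other 6, and the inosine libraries were the most spread. Its log2 difference was -0.72 ± 0.09 against inosine (SE, limma adjusted p = 0.00088) and -0.60 ± 0.09 against glucose (adjusted p = 0.0023). In the GENCODE annotation, used here for all shared exon bases, 30.5% of its exon bases are shared with Gm16279 on the opposite strand. Since the strand of the libraries is not stated, reads of the pair in that shared part cannot be told apart.

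Mrps27, Mrps7 and Mrps23 were the other small subunit genes among these falls. Mrps27, a pentatricopeptide repeat protein found in the mitochondrial ribosome and not in the bacterial one, had 14.4, 12.5 and 13.2 FPKM with hypoxanthine against 19.9, 18.6 and 19.8 FPKM in inosine, a log2 difference of -0.51 ± 0.07 (SE, limma adjusted p = 0.0015). Mrps7, whose bacterial counterpart nucleates the head of the small subunit, had 27.3, 25.03 and 26.1 FPKM with hypoxanthine against 38.01, 35.7 and 37.9 FPKM in inosine, a log2 difference of -0.49 ± 0.07 (SE, limma adjusted p = 0.0017). Mrps23 had 42.0, 38.6 and 42.3 FPKM with hypoxanthine against 54.0, 56.6 and 54.0 FPKM in inosine, a log2 difference of -0.41 ± 0.07 (SE, limma adjusted p = 0.0026). For each of the 3 genes the hypoxanthine libraries lay below all inosine libraries. Exon bases are shared with other genes for 24.2% of Mrps27 (6430562O15Rik) and 11.9% of Mrps7 (Gga3 and Mif4gd), all on the opposite strand, and for none of Mrps23.

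The other 5 of the 10 falls were large subunit genes. Mrpl12, the counterpart of the bacterial stalk protein that recruits translation factors, had 85.5, 84.1 and 79.4 FPKM with hypoxanthine, 113, 120 and 129 FPKM in inosine and 120, 109 and 111 FPKM in glucose. It was the most abundant member among these 10, and the hypoxanthine libraries lay below the other 6. Its log2 difference was -0.53 ± 0.07 against inosine (SE, limma adjusted p = 0.0013) and -0.45 ± 0.07 against glucose (adjusted p = 0.0033). Mrpl37 had 23.9, 20.8 and 22.3 FPKM with hypoxanthine against 33.7, 31.5 and 33.1 FPKM in inosine, a log2 difference of -0.53 ± 0.07 (SE, limma adjusted p = 0.0011). Mrpl53 had 27.99, 29.04 and 28.3 FPKM with hypoxanthine against 44.2, 44.9 and 43.6 FPKM in inosine, a log2 difference of -0.62 ± 0.08 (SE, limma adjusted p = 0.0012). Both are proteins of the mitochondrial ribosome with no bacterial counterpart, and in both the groups were apart by more than their range. Mrpl45, which sits at the exit tunnel and holds the ribosome to the inner membrane, had 18.9, 18.6 and 17.4 FPKM with hypoxanthine against 28.1, 25.4 and 27.7 FPKM in inosine, a log2 difference of -0.54 ± 0.08 (SE, limma adjusted p = 0.0015). Mrpl9, which has a bacterial counterpart, had 33.5, 33.2 and 31.4 FPKM with hypoxanthine against 45.8, 42.7 and 47.5 FPKM in inosine, a log2 difference of -0.46 ± 0.07 (SE, limma adjusted p = 0.0028). The groups did not overlap for either gene. No exon base of Mrpl12, Mrpl37, Mrpl45 or Mrpl53 is shared with another gene, and 5.81% of those of Mrpl9 are shared with Oaz3.

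**Figure D2:**
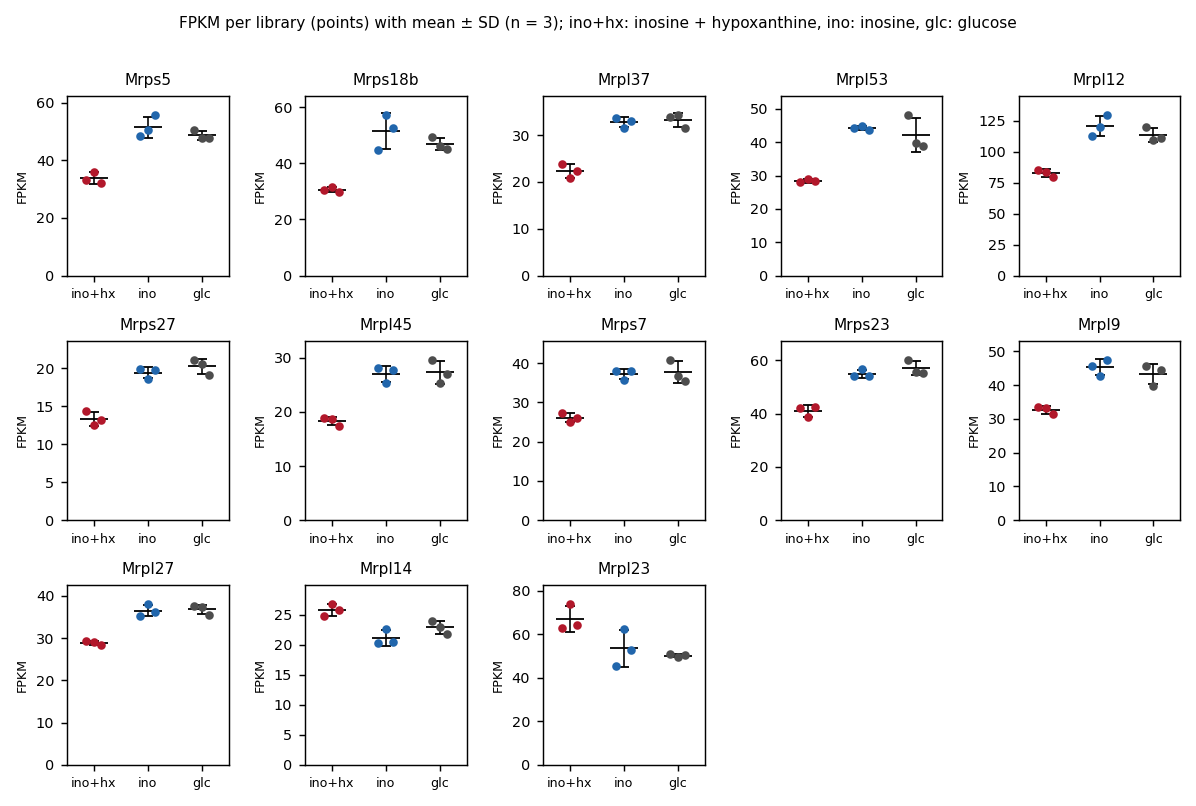
FPKM of the members named by the rule for the comparisons with hypoxanthine, per library (points), with the mean ± SD of 3 libraries, for inosine plus hypoxanthine, inosine and glucose; each axis starts at 0. In the first 11 panels the 3 hypoxanthine libraries lie below the other 6, and in the panels of Mrpl14 and Mrpl23 they lie above.

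The single rise against inosine was Mrpl14, whose bacterial counterpart lies at the interface between the subunits. It had 24.8, 26.7 and 25.9 FPKM with hypoxanthine, 20.4, 22.6 and 20.4 FPKM in inosine and 24.0, 22.9 and 21.7 FPKM in glucose. The hypoxanthine libraries lay above the other 6. Its log2 difference was 0.28 ± 0.07 against inosine (SE, limma adjusted p = 0.021) and 0.17 ± 0.07 against glucose (adjusted p = 0.13). The call against inosine was lost without replicate 2 or 3 with hypoxanthine and without replicate 1 or 3 of inosine, at log2 differences of 0.25 to 0.27, and over the settings tried the adjusted p ran from 0.0040 to 0.075. On estimated reads in place of FPKM the difference was 0.46 against inosine. Against glucose it was 0.39 on those reads, with an adjusted p of 0.010 (limma's voom), a setting chosen after seeing the data. Of the exon bases of Mrpl14, 11.2% are shared with Tmem63b on the opposite strand. Mrpl23, whose bacterial counterpart stands at the exit of the peptide tunnel, had 62.7, 73.7 and 64.1 FPKM with hypoxanthine, 45.5, 62.2 and 52.6 FPKM in inosine and 50.7, 49.3 and 50.3 FPKM in glucose. The hypoxanthine libraries lay above the rest, by a small margin over replicate 2 of inosine. Its log2 difference was 0.32 ± 0.11 against inosine (SE, limma adjusted p = 0.072, and 0.013 without replicate 2 of inosine) and 0.40 ± 0.11 against glucose (adjusted p = 0.033). The call against glucose was lost without any 1 of the 3 hypoxanthine libraries, the 3 glucose libraries or replicate 3 of inosine, at 0.33 to 0.45, with an adjusted p of 0.0099 to 0.11 over the settings tried, and it was also lost with median-of-ratios scaling, at 0.39.

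Both subunits took part. Of the 49 large subunit members, 27 fell, 1 rose and 21 were not called against inosine, with a median of -0.32. Of the 29 small subunit members, 13 fell and 16 were not called, with a median of -0.27. These counts go by symbol, and in the ribosome's structure the products of Mrps18a and Mrps30 belong to the large subunit. The 44 members whose number is within the bacterial range (up to 36 for large and up to 21 for small subunit symbols) had 21 falls and 1 rise, with a median of -0.26. The 34 with higher numbers, given to proteins without a bacterial name, had 19 falls and no rise, with a median of -0.33. The difference between these groups was not tested. Falls numbered 26 of the 54 members with no shared exon base and 14 of the 24 with some, whose shared part was largest for Mrps34 at 77.8% and Mrps25 at 69.8%. The log2 difference of a member had a Spearman rho of 0.030 with its mean FPKM and of -0.054 with its exon length, a description over 78 genes of the same libraries.

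**Figure D3:**
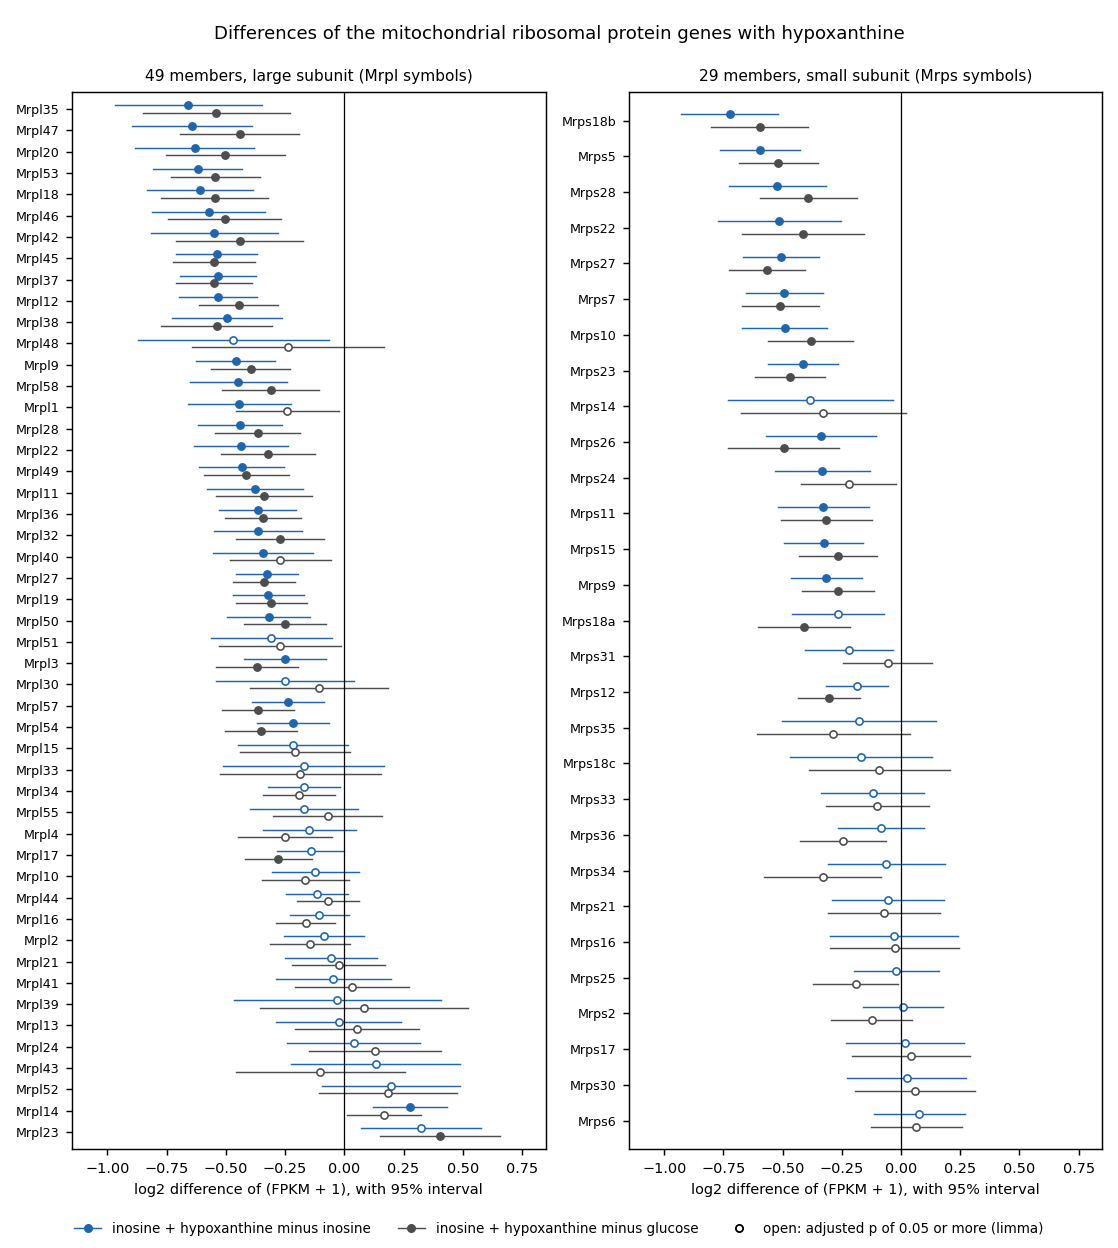
Log2 differences of (FPKM + 1) with 95% intervals for the 49 large subunit members (left) and the 29 small subunit members (right), inosine plus hypoxanthine minus inosine in blue and minus glucose in grey, with filled points for a limma adjusted p under 0.05. Members are ordered by the difference from inosine, from Mrpl35 to Mrpl23 and from Mrps18b to Mrps6. Most points lie left of 0, and the filled points right of 0 are Mrpl14 against inosine and Mrpl23 against glucose.

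Several abundant members were not called while others of like level fell. Mrpl33 differed from inosine by -0.17 ± 0.15 (SE, limma adjusted p = 0.48), with a 95% interval of -0.51 to 0.17. Mrps21, which had 91.0, 106 and 92.5 FPKM with hypoxanthine against 95.2, 117 and 90.1 FPKM in inosine, differed by -0.05 ± 0.10 (SE, limma adjusted p = 0.77), with an interval of -0.29 to 0.18. Their libraries overlapped, and without replicate 2 of inosine the differences were 0.0027 for Mrpl33 and 0.056 for Mrps21. In contrast, Mrpl18, with 73.8, 85.3 and 77.98 FPKM with hypoxanthine against 106, 138 and 120 FPKM in inosine, fell by 0.61 (SE 0.10, limma adjusted p = 0.0030). Mrpl42, with 79.2, 98.6 and 83.6 FPKM with hypoxanthine against 109, 147 and 130 FPKM in inosine, fell by 0.55 (SE 0.12, limma adjusted p = 0.011). Replicate 2 of inosine was the highest inosine library for all 4 of these genes, and in replicate 2 of inosine and of hypoxanthine 55 of 78 members lay above the mean of their medium. These are also the 2 libraries with the highest share of mitochondrial DNA genes. Replicate 1 of glucose had 66 of 78 members above the mean of its medium, at a mitochondrial DNA share of 4.21%. A link between that share and the members was not tested. Without the 2 libraries of highest share, 38 members fell and 2 rose against inosine, a setting chosen after seeing the data. In that setting Mrpl33 was called against glucose, at -0.29 (limma adjusted p = 0.012). With all libraries it differed from glucose by -0.19 (limma adjusted p = 0.44). Of the least abundant members, Mrpl1 had 6.40, 6.53 and 5.31 FPKM with hypoxanthine against 9.50, 8.67 and 7.69 FPKM in inosine, a log2 difference of -0.44 ± 0.10 (SE, limma adjusted p = 0.012). Mrpl19 had 8.66, 8.52 and 8.04 FPKM with hypoxanthine against 9.95, 11.3 and 10.98 FPKM in inosine, a difference of -0.32 ± 0.07 (SE, limma adjusted p = 0.0096), and part of its exon bases is shared with Gcfc2. Mrpl41, with 10.9, 13.0 and 11.1 FPKM with hypoxanthine against 10.6, 14.04 and 11.7 FPKM in inosine, had overlapping libraries and a difference of -0.05 ± 0.11 (SE, limma adjusted p = 0.82), which was 0.057 without replicate 2 of inosine.

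Members of a shared family or locus were also set side by side, chosen after their values were seen. Of the 3 genes related to bacterial S18, Mrps18b fell against both media. Mrps18a stood at 24.6 ± 1.17 FPKM with hypoxanthine, 29.8 ± 2.62 FPKM in inosine and 33.0 ± 2.52 FPKM in glucose (SD, n = 3), with a limma adjusted p of 0.057 against inosine and 0.010 against glucose. Without replicate 2 of inosine its adjusted p against inosine was 0.024. Mrps18c stood at 75.9 ± 11.7 FPKM with hypoxanthine, 85.4 ± 13.3 FPKM in inosine and 80.4 ± 4.17 FPKM in glucose (SD, n = 3), with overlapping libraries and no call. Mrpl46 and Mrps11 lie head to head on chromosome 7, at 78775341 to 78783089 (minus strand) and 78783131 to 78792988 (plus strand) in GRCm38.p6, RefSeq coordinates that do not overlap. Both fell against inosine, Mrpl46 by 0.57 (limma adjusted p = 0.0053) and Mrps11 by 0.33 (adjusted p = 0.024), and 12.2% and 7.97% of their exon bases overlap in the longer GENCODE exons. The call of Mrps11 was lost without replicate 2 or 3 with hypoxanthine, without replicate 1 or 3 of inosine and without both libraries of highest mitochondrial share, with an adjusted p of 0.066 to 0.084. Mrpl46 had 20.7, 24.3 and 19.1 FPKM with hypoxanthine against 29.1, 34.8 and 32.7 FPKM in inosine, and Mrps11 had 21.5, 19.4 and 20.1 FPKM with hypoxanthine against 27.4, 24.5 and 25.6 FPKM in inosine. In both genes the libraries of the 2 media were apart.

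The comparison of inosine plus hypoxanthine with glucose sets the same 3 hypoxanthine libraries against cells on the sugar, so it is not independent of the comparison with inosine. Of the 78 members, 40 fell, 1 rose and 37 were not called (limma, adjusted p under 0.05), where 9.55% of all genes fell and 10.8% rose. Among expressed genes 15.9% fell and 15.0% rose. The median difference of the members was -0.28, beside 0.0012 over all genes. For 53 members the hypoxanthine libraries lay below all glucose libraries, which held for 17.8% of all genes, and for 2 they lay above, which held for 19.8%. The 40 falls had a median ratio of mean FPKM of 0.750, from 0.654 for Mrps18b to 0.829 for Mrps15. Without replicate 3 with hypoxanthine, 24 fell. By subunit, 26 of 49 large and 14 of 29 small subunit members fell.

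Against glucose the smallest adjusted p belonged to Mrps27, with 14.4, 12.5 and 13.2 FPKM with hypoxanthine against 21.1, 20.5 and 19.1 FPKM in glucose, a log2 difference of -0.57 ± 0.07 (SE, limma adjusted p = 0.00090). Mrpl37 followed at 23.9, 20.8 and 22.3 FPKM with hypoxanthine against 33.8, 34.2 and 31.5 FPKM in glucose, a difference of -0.55 ± 0.07 (SE, limma adjusted p = 0.00095). Mrpl45 had 18.9, 18.6 and 17.4 FPKM with hypoxanthine against 29.6, 25.3 and 27.0 FPKM in glucose, a difference of -0.55 ± 0.08 (SE, limma adjusted p = 0.0014). In each of these the groups did not overlap. Mrps23, Mrps7 and Mrpl53 differed from glucose by -0.47, -0.51 and -0.55 (limma adjusted p of 0.0015, 0.0015 and 0.0023). Mrpl27, whose bacterial counterpart reaches into the peptidyl transferase centre, had 29.3, 29.1 and 28.3 FPKM with hypoxanthine against 37.6, 37.3 and 35.5 FPKM in glucose, a difference of -0.34 ± 0.06 (SE, limma adjusted p = 0.0041), and against inosine it differed by -0.33 ± 0.06 (adjusted p = 0.0044). Of its exon bases, 7.61% are shared with Eme1. Mrpl17 differed by -0.28 ± 0.06 from glucose (SE, limma adjusted p = 0.013) and by -0.14 ± 0.06 from inosine (adjusted p = 0.15).

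The comparison of inosine with glucose asks whether the nucleoside in place of the sugar alters these genes. No member rose or fell (limma), where 1 gene of all rose (0.00485%) and 1 fell (0.00485%), and 1 member had an unadjusted p under 0.05. limma's voom on estimated reads also called 0 members. The median difference of the members was 0.035, with 48 higher and 30 lower means in inosine. Inosine libraries lay above all glucose libraries for 2 members, which held for 2.23% of all genes, and below for 6, which held for 2.83%. The 95% interval of the difference lay within 1 log2 unit of 0 for all 78 members and within 0.5 for 74. The median standard error of a member's difference was 0.087.

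The 5 members with the smallest unadjusted p between inosine and glucose had an adjusted p of 1 each (limma). Mrps34 had 39.2, 30.7 and 32.6 FPKM in inosine against 44.4, 42.2 and 37.2 FPKM in glucose, a log2 difference of -0.27 with a 95% interval of -0.51 to -0.02 and an unadjusted p of 0.036. Its libraries overlapped, and most of its exon bases are shared with Mapk8ip3 and Nme3. Mrpl17, whose values stand above, differed by -0.14 (-0.28 to 0.0033) and its inosine libraries lay below those of glucose. Mrps25 had 7.52, 7.38 and 6.98 FPKM in inosine against 9.17, 8.28 and 7.61 FPKM in glucose, a difference of -0.17 (-0.35 to 0.0078), and 69.8% of its exon bases are shared with Nr2c2. Mrpl1, a protein of the stalk beside the exit site, had 9.50, 8.67 and 7.69 FPKM in inosine against 7.74, 7.02 and 7.27 FPKM in glucose, with overlap and a difference of 0.20 (-0.02 to 0.42). Mrps12, a protein of the decoding centre, had 37.0, 36.6 and 37.3 FPKM in inosine against 40.7, 41.1 and 38.8 FPKM in glucose, a difference of -0.12 (-0.25 to 0.014). With hypoxanthine Mrps12 had 33.9, 31.3 and 32.0 FPKM, below the other 6 libraries, with a limma adjusted p of 0.052 against inosine and 0.0069 against glucose.

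The authors' own test gave close counts. In the authors' deposited table, with an adjusted p under 0.05, 41 members fell and 1 rose with hypoxanthine against inosine, where 11.6% of its genes fell and 11.1% rose. Against glucose, 46 fell and 2 rose in the authors' deposited table, where 13.8% of genes fell and 12.7% rose. Between inosine and glucose the authors' deposited table called no member in either direction, where 0% of genes rose and 0.00506% fell. In the authors' deposited table Mrps18b had a log2 value of 0.79 and Mrps5 of 0.65, given there as inosine over inosine plus hypoxanthine. Mrpl14 had -0.41 in the same direction in the authors' deposited table. The 2 rises against glucose in the authors' deposited table were Mrpl14 and Mrpl23. Their log2 values, as glucose over inosine plus hypoxanthine, were -0.37 and -0.40 (adjusted p of 0.0024 and 0.00050 in the authors' deposited table). No member met the rule of the authors' deposited table for significant genes, which asks for a change of more than 1 log2 unit.

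Other parts of the mitochondrial translation apparatus were followed in lists of related genes, read against the background shares given above for each comparison. Of 5 ribosomal proteins of mitochondria that carry other symbols, Dap3, Ptcd3 and Chchd1 fell against inosine, and no member of the list was called against glucose. Dap3, a GTP-binding small subunit protein, stood at 27.5 ± 4.14 FPKM with hypoxanthine, 37.9 ± 4.65 FPKM in inosine and 32.2 ± 2.54 FPKM in glucose (SD, n = 3), with a limma adjusted p of 0.036 against inosine and 0.26 against glucose. Ptcd3, a small subunit protein with pentatricopeptide repeats, stood at 21.7 ± 1.73 FPKM with hypoxanthine, 29.4 ± 3.03 FPKM in inosine and 26.3 ± 0.254 FPKM in glucose (SD, n = 3; limma adjusted p of 0.0092 and 0.060). Chchd1, also of the small subunit, stood at 78.4 ± 11.8 FPKM with hypoxanthine, 110 ± 10.7 FPKM in inosine and 97.5 ± 8.34 FPKM in glucose (SD, n = 3; limma adjusted p of 0.020 and 0.10). Against inosine, Aurkaip1 had a log2 difference of -0.19 and Gadd45gip1 of -0.10 (limma adjusted p of 0.23 and 0.48).

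Among 15 translation factors and activators of mitochondria, 7 fell and none rose against inosine, and 4 fell against glucose. Tufm, the elongation factor that brings transfer RNA to the ribosome, stood at 48.4 ± 2.63 FPKM with hypoxanthine, 71.0 ± 2.86 FPKM in inosine and 73.9 ± 4.43 FPKM in glucose (SD, n = 3; limma adjusted p of 0.0011 and 0.00068). Gfm1, the translocation factor, stood at 20.2 ± 1.27 FPKM with hypoxanthine, 32.6 ± 3.08 FPKM in inosine and 33.0 ± 0.439 FPKM in glucose (SD, n = 3; limma adjusted p of 0.00080 and 0.00068). The other falls against inosine were Mtif3, Gfm2, Mtrf1, Lrpprc and Taco1. Of 23 assembly factors, 4 fell against inosine (Mtg1, Eral1, Fastkd2 and Ngrn), and against glucose 2 fell and Mettl15 rose. Fastkd2, an RNA-binding protein needed for the large ribosomal RNA, stood at 5.09 ± 0.719 FPKM with hypoxanthine against 8.44 ± 1.23 FPKM in inosine (SD, n = 3; limma adjusted p = 0.0070). Of 6 enzymes that modify the mitochondrial ribosomal RNA, Mrm3 fell against inosine and Mrm3 and Trmt61b fell against glucose. Among expressed genes, 15.95% fell against inosine and 15.9% against glucose. The falls of assembly factors were near that share against inosine and below it against glucose. The fall of 1 modifying enzyme against inosine is also near that share.

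Of 14 genes of mitochondrial RNA processing and decay, 5 fell and none rose in each of the comparisons with hypoxanthine, among them Tbrg4 and Pnpt1, with differences from inosine of -0.46 and -0.43 (limma adjusted p of 0.012 and 0.015). Of 20 aminoacyl-tRNA enzymes of mitochondria, 5 fell and 1 rose against inosine and 4 fell against glucose. Yars2, which charges the tyrosine transfer RNA, differed from inosine by -0.52 (limma adjusted p = 0.0018). Of 12 genes of mitochondrial DNA maintenance and transcription, the DNA polymerase gene Polg rose and the topoisomerase gene Top1mt fell in each of the comparisons with hypoxanthine. These counts are near the shares over all genes, 11.7% rising and 9.59% falling against inosine and 10.8% and 9.55% against glucose. Polg stood at 8.95 ± 0.266 FPKM with hypoxanthine, 5.87 ± 0.62 FPKM in inosine and 6.68 ± 0.474 FPKM in glucose (SD, n = 3; limma adjusted p of 0.0024 and 0.013). None of the 13 proteins encoded in mitochondrial DNA was called, with median differences of -0.17 against inosine and 0.094 against glucose and a median standard error of 0.21.

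Of 10 factors known to act on genes of this kind, 1 (Myc) rose and 1 (Nrf1) fell in each comparison with hypoxanthine. Over all genes, 11.7% rose and 9.59% fell against inosine, and 10.8% rose and 9.55% fell against glucose. The counts of the list are near those shares. Myc stood at 105 ± 15.0 FPKM with hypoxanthine, 62.7 ± 12.3 FPKM in inosine and 68.7 ± 3.59 FPKM in glucose (SD, n = 3; limma adjusted p of 0.0096 and 0.026). Nrf1, nuclear respiratory factor, stood at 14.7 ± 1.26 FPKM with hypoxanthine, 18.6 ± 1.00 FPKM in inosine and 18.5 ± 1.04 FPKM in glucose (SD, n = 3; limma adjusted p of 0.020 and 0.024). Gabpa, Gabpb1, Gabpb2, Yy1, Pprc1, Ppargc1b and Esrra were not called, with differences from inosine of -0.18 to 0.06, and Ppargc1a was listed at under 0.02 FPKM in the mean of each medium. A transcript level does not show the activity of the factor, and no link to the members was tested.

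The cytosolic ribosome and the respiratory chain were set beside the members. Of 83 genes of cytosolic ribosomal proteins and their paralogs, 18 rose and 2 fell with hypoxanthine against inosine, with a median difference of 0.27, and 21 rose and 2 fell against glucose, with a median of 0.30. The 2 falls against inosine were Rpl7l1 and Rps27l, which are paralogs of ribosomal proteins and not the standard subunits. Rplp1, at 4137 ± 367 FPKM with hypoxanthine, 3682 ± 493 FPKM in inosine and 3499 ± 101 FPKM in glucose (SD, n = 3), was the most abundant and was not called (limma adjusted p of 0.33 and 0.16). Of 83 nuclear genes of oxidative phosphorylation, 15 fell and 1 rose against inosine, with a median of -0.15, and 20 fell and 1 rose against glucose, with a median of -0.17. Over all genes, 11.7% rose and 9.59% fell against inosine, and 10.8% rose and 9.55% fell against glucose. Among expressed genes, 16.9% rose and 15.95% fell against inosine, and 15.0% rose and 15.9% fell against glucose. The 15 falls of oxidative phosphorylation genes against inosine are near the share of expressed genes. Atp5b, the catalytic subunit of ATP synthase, stood at 566 ± 25.7 FPKM with hypoxanthine, 743 ± 46.7 FPKM in inosine and 755 ± 22.4 FPKM in glucose (SD, n = 3; limma adjusted p of 0.0057 and 0.0045). Differences between these lists and the members were not tested.

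**Figure D4:**
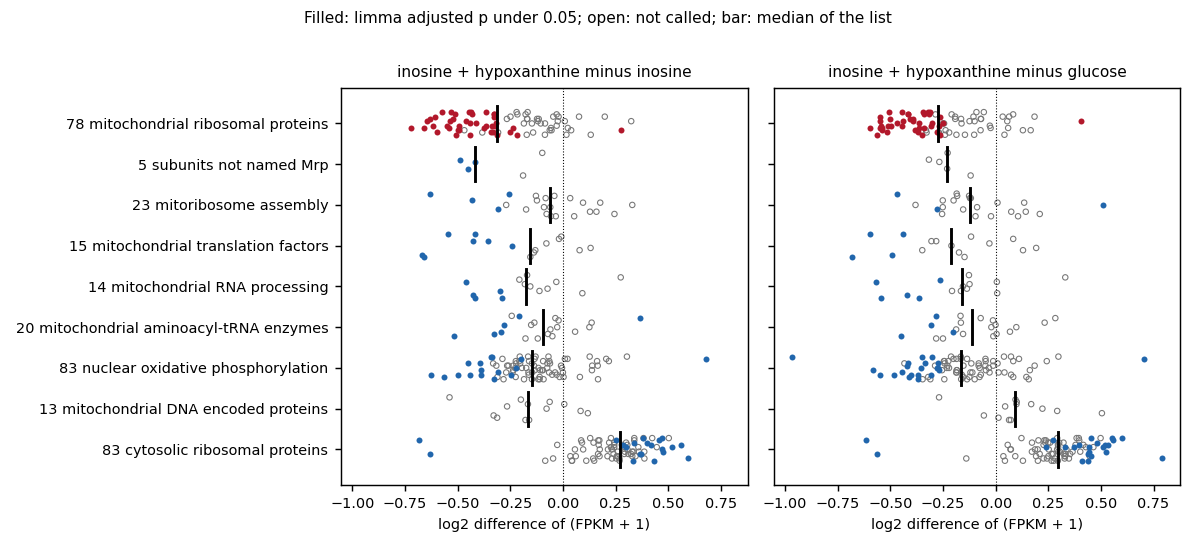
Log2 differences of (FPKM + 1) of single genes for the 78 members and 8 related lists, inosine plus hypoxanthine minus inosine (left) and minus glucose (right), with filled points for a limma adjusted p under 0.05 and a bar at the median of each list. The members' medians are -0.31 and -0.28, and those of the cytosolic ribosomal proteins are 0.27 and 0.30.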

How the data were processed

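RNA-seq of 9 libraries was used, 3 per medium. The submitters' processing notes name HISAT2, featureCounts, Subread 2.0.1 and DESeq2 1.38.3 with the mm10 genome, without the part each played. Per library and gene, the authors deposited FPKM. They also hold a group mean read count (a signal normalized by the authors), log2 fold changes and p-values of the authors, and the 2 tables with hypoxanthine give the fold change as control over hypoxanthine. Differences are of log2(FPKM + 1), so changes of low genes are understated.

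limma 3.58.1 (R 4.3.3) with its trend and robust options was fitted to log2(FPKM + 1) of all 20618 genes and 9 libraries (pseudocount 1, no filter, 6 residual degrees of freedom), with Benjamini-Hochberg adjustment over all genes and calls at an adjusted p under 0.05. It was tested on simulated data with independent noise per gene and library, which leaves out deviations that genes of a library share. Every adjusted p is from limma unless the authors' table is named. Reads per library were estimated from FPKM and the deposited group means, whose tables agreed within 0.503%. Medium was taken from the labels. Library numbers were not used as pairs.

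Named members are the 10 called with the smallest adjusted p in each direction of each comparison with hypoxanthine, the 5 with the smallest p between inosine and glucose, and the 5 highest and 5 lowest in mean FPKM. The members and lists were chosen with earlier results of these data known. Promoters and loci are RefSeq's, in GRCm38.p6, the assembly also called mm10, and shared exon bases, strands and exon lengths are GENCODE's. Settings tried were the pseudocount, a filter at a mean of 1 FPKM, scaling, variance settings, libraries in the fit, a replicate block, each library left out, voom and the 2 libraries of highest mitochondrial share left out. The ribosomal RNAs of mitochondrial DNA and protein sequences were not analysed here.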

Additional observations from a re-analysis of the deposited data

How the results depend on the processing

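Over 19 other settings, the count of members that fell with hypoxanthine against inosine stayed within 1.5 times of 40, and no named difference that was called changed its direction. Of the 41 members called in each comparison with hypoxanthine, 27 were called under every setting against inosine and 15 against glucose. With 1 library left out at a time, the falls against inosine numbered 28 to 39 and the rises 0 to 3, with a median difference of -0.321 to -0.267. Against glucose the falls numbered 24 to 44 and the rises 0 to 1, with a median of -0.295 to -0.270. Between inosine and glucose there were 0 calls each way, and the median ran from -0.0260 to 0.0789, changing sign without replicate 2 of inosine. The rises against inosine numbered 2 with a mean FPKM of at least 1, with quantile normalization, with the replicate block in 9 and in 6 libraries, and without the 2 libraries of highest mitochondrial share. The median against inosine was -0.25 with quantile normalization. Against glucose, 0 members rose with median-of-ratios scaling, and 2 rose with voom. Without the 2 libraries of highest mitochondrial share the median between inosine and glucose was -0.026. The last setting and voom were chosen after seeing the data, and the causes of these moves were not tested.

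With the library number as a replicate block, 40 members fell against inosine and 40 against glucose in the fit of 9 libraries. In a fit of only the 6 libraries compared, which leaves fewer residual degrees of freedom, 41 fell against inosine, and against glucose 16 fell and 0 rose. The cause of the lower count against glucose was not tested. Same-numbered libraries were not alike throughout, so the numbers were not taken as pairs. Correlations among so few libraries cannot settle whether the numbers pair the samples. Deviations of same-numbered libraries correlated over genes at 0.41, 0.64 and 0.018 between hypoxanthine and inosine, at 0.085, -0.20 and -0.063 between hypoxanthine and glucose, and at 0.40, 0.26 and -0.27 between inosine and glucose, and replicate 3 with hypoxanthine correlated better with replicate 1 of inosine (0.30) than with replicate 3. Of the named members' calls against inosine, that of Mrpl14 was lost in 4 settings and that of Mrps11 in 5. Against glucose, calls were lost for Mrpl23 in 9 settings, the replicate block in 6 libraries among them, with an adjusted p of up to 0.11, for Mrpl42 in 7 (up to 0.10), for Mrps11 in 7 (up to 0.098) and for Mrpl19 in 2 (up to 0.058). The replicate block in 6 libraries alone ended the calls of Mrpl9, Mrpl17, Mrpl46, Mrpl53 and Mrps12 against glucose. Calls were also gained. Against glucose this held for Mrps34 in 6 settings (limma adjusted p of 0.026 to 0.049), Mrpl1 and Mrpl14 with voom, and Mrpl33 without the 2 libraries of highest mitochondrial share. Against inosine it held for Mrpl23 and Mrps18a in 6 settings each, Mrps12 in 3 (down to 0.019) and Mrpl17 in 1 (0.012). Differences of members that were not called changed sign. With 1 library left out at a time, the differences from inosine ran from -0.28 to 0.0027 for Mrpl33, from -0.13 to 0.057 for Mrpl41 and from -0.13 to 0.056 for Mrps21, each highest without replicate 2 of inosine, from -0.13 to 0.037 for Mrps34 and from -0.067 to 0.0021 for Mrps25. The difference of Mrpl41 from glucose ran from -0.041 to 0.076, and was -0.041 without the 2 libraries of highest mitochondrial share. With quantile normalization, Mrps21 differed by 0.052 and Mrps34 by 0.012 from inosine, and Mrps18c by 0.022 and Mrps21 by 0.057 from glucose.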
